A study of Mus musculus with 9 samples.

Results

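The hormones of the enteroendocrine cells were examined in the jejunum of 9 mice through 10 genes, Gip, Cck, Sct, Gcg, Pyy, Nts, Sst, Ghrl, Chga and Neurod1. The genes were chosen by name, as the probes whose gene symbol equals 1 of the 10, among 15444 genes named by a probe with a single symbol. Each of the 10 had 1 probe. Detection on an array required a signal of at least 3 times the noise of the spot, and 8 of the 10 were detected on all 9 arrays. Neurod1 was detected on 5 arrays and Ghrl on 2.

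Each mouse had its own Applied Biosystems array, a single-colour array with 60-mer probes and a chemiluminescent readout. All 9 mice were males of the outbred OF1 stock at an age of 7 weeks. The mice belonged to generation 3 of a feeding trial and received feed B (mice 7, 8 and 10), feed K (mice 1, 3 and 4) or feed G (mice 4, 8 and 11), so that each feed had 3 mice. What the letters stand for is not given in the sources used here, and none of the feeds served as a control in the comparisons. The tissue was the whole wall of a 2 cm segment around the midpoint of the small intestine, taken after 3 hours without food. The daytimes of sampling were neither recorded nor randomized between the groups. Mice are named below by feed and number, B7 being mouse 7 of feed B. The share of detected probes was 36.7%, 33.7% and 43.6% on the arrays of B7, B8 and B10. It was 41.2% to 47.6% on the arrays of feed K and 46.4% to 48.1% on those of feed G. Values below are log2 normalized signals, that is the log2 of the quantile normalized intensity of a probe. The level of a probe was not set against that of another probe, since probes differ in how strongly they bind. Sums of the signals of several genes, given below, weigh the brightest probes most.

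Enteroendocrine cells are single hormone-secreting cells scattered through the intestinal epithelium, which sense the contents of the gut and release peptides from granules into the blood and towards nearby nerves. The hormones are made in a gradient along the gut: glucose-dependent insulinotropic polypeptide, cholecystokinin and secretin are typical of its upper part, and the proglucagon peptides, peptide YY and neurotensin become more frequent towards the ileum. The jejunum lies between and holds all of these cells. The cells are a small fraction of the wall, so that in bulk RNA fewer cells and less hormone RNA per cell cannot be told apart.

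The promoters of 4 hormone genes are shown because their pairs, Gcg with Pyy and Gip with Sst, give the clearest and the least stable of the relations described below. The sequences are RefSeq's for the build GRCm38.p6, from 250 bases before to 50 bases after the annotated start, 5′ to 3′ on the strand of the gene. Gcg lies at chr2:62483604-62483903 on the minus strand, and Pyy at chr11:102107783-102108082 on the minus strand, where the start at the outer end of the gene was taken of the 2 listed. Gip lies at chr11:96024295-96024594 on the plus strand and Sst at chr16:23890795-23891094 on the minus strand. The Sst window was set by the only start listed, which lies inside the annotated gene, whose outer end is at 23891342. Capitals mark E-boxes, the motif CANNTG bound by helix-loop-helix factors such as Neurod1, and the cAMP response element TGACGTCA.
Gcg: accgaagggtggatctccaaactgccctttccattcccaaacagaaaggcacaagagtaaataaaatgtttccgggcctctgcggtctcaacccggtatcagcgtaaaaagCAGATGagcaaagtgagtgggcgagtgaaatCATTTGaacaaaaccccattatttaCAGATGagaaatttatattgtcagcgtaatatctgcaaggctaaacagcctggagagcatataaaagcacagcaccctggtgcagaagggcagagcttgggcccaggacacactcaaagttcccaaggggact
Pyy: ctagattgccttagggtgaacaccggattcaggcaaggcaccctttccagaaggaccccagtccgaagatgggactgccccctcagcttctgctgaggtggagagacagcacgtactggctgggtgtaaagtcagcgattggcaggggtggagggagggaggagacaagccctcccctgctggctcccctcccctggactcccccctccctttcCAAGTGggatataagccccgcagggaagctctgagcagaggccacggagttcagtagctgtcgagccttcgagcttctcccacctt
Gip: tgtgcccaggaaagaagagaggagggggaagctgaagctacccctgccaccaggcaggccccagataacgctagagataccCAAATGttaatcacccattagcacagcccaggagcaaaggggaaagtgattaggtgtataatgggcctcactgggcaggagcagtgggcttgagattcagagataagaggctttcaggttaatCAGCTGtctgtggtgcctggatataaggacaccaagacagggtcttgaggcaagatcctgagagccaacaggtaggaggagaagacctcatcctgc
Sst: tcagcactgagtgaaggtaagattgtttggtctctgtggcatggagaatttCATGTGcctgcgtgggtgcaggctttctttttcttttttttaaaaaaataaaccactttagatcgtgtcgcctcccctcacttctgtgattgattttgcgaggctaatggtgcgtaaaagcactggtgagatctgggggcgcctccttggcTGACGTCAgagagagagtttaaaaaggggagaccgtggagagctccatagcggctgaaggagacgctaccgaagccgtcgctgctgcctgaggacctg

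An E-box was found in the window of all 10 genes, 3 times in Gcg, once in Pyy, 2 times in Gip and once in Sst, and in 72.3% of the 32851 promoters of the table. The cAMP response element, whose letters read the same on both strands, stood in the Sst window alone among the 10, and in 1.79% of all promoters. The TATA box TATAAA, searched on both strands, was found in the windows of Sct, Gcg and Chga, compared with 13.6% of all promoters. Matches of different motifs overlapped in 0 of the 10 windows, and a match is a description of letters only.

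No hormone gene differed between the feeds past the test's threshold, and the values of the feeds overlapped for each of the 8 genes detected on all arrays. Of the 9498 genes tested with limma, 0 (0%) passed an adjusted p of 0.05 in any pair of feeds or over the 3 feeds together, and none of the 9 members tested did. Without B10, 10 genes passed between feeds K and B, 3 between G and B and 3 over the 3 feeds, and no member was among them. Without adjustment, at 0.05, the share of all genes that passed was 6.29% between feeds K and B, 5.76% between G and B, 4.46% between G and K and 5.36% over the 3 feeds, whereas 0 of the 9 members passed in any of them. The adjusted p-values of the members lay between 0.788 and 0.996 for the pairs of feeds and between 0.904 and 0.981 over the 3 feeds. Each array is 1 mouse, and the p-values measure the spread between these mice.

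**Figure D1:**
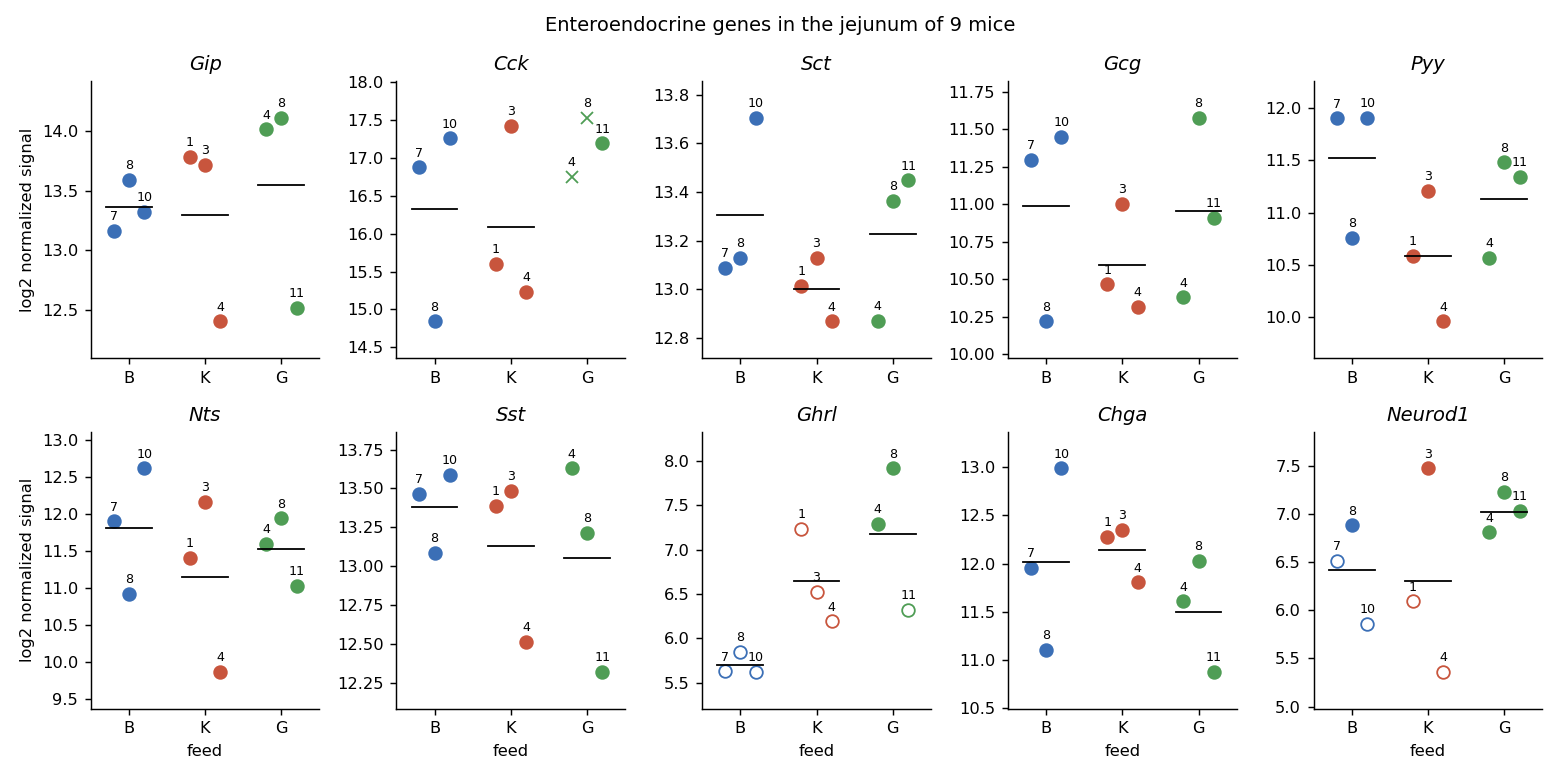
Log2 normalized signal of the 10 genes (vertical axes, each with its own range) in each mouse, by feed (horizontal axes); numbers are mouse numbers, filled circles are detected, open circles are not detected, crosses are Cck spots with a failed quality flag, and lines are the means over the values without a failed flag, where there are at least 2. The 3 feeds overlap for every gene detected on all arrays, and mouse 4 of feed K is the lowest of all mice for Gip, Sct, Pyy and Nts. This mouse also reads lowest for Neurod1, which was not detected in it.

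Among the hormones of the upper gut, Gip encodes glucose-dependent insulinotropic polypeptide, the incretin of the K cells, which raises insulin release after a meal. Its log2 signal was 13.17, 13.59 and 13.32 in B7, B8 and B10, 13.78, 13.72 and 12.40 in K1, K3 and K4, and 14.01, 14.11 and 12.52 in G4, G8 and G11. K4 and G11 stood below all other mice, and the 3 feeds overlapped. The highest and the lowest mouse differed 3.27-fold. The difference of feed K minus feed B was -0.06 (95% interval -1.22 to 1.10), and that of feed G minus feed B was 0.19 (-0.97 to 1.35).

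Cck encodes cholecystokinin, the peptide of the I cells that contracts the gallbladder, stimulates pancreatic enzyme secretion and reduces food intake. Its log2 signal was 16.88, 14.84 and 17.26 in B7, B8 and B10 and 15.60, 17.42 and 15.23 in K1, K3 and K4. In feed G only G11 had a value without a failed flag, 17.19. The spots of G4 and G8 carried a failed flag and were left out; with them kept, they gave 16.75 and 17.53. B8, K1 and K4 were the low mice, and the range over the 7 mice was 5.99-fold. Feed K minus feed B was -0.24 (-2.25 to 1.76), and feed G minus feed B was 0.87 (-1.97 to 3.71), the latter resting on 1 mouse of feed G.

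The Cck spot carried the quality code 64 of the array reader on 7 arrays, including those of G4 and G8, and 12 other probes carried it on at least 4 arrays. What the code means is not given in the sources used here. With failed spots kept, the median log2 signal of these 12 probes was 14.28, 12.35 and 14.07 in B7, B8 and B10, 12.80, 14.74 and 12.51 in K1, K3 and K4, and 13.93, 14.64 and 14.38 in G4, G8 and G11. It was thus low in the same 3 mice as Cck. Of the 12 probes, 8 had an r of at least 0.9 with Cck over the 9 mice, among them those of Mapk8ip2 and Zdhhc9 and that of the olfactory receptor Olfr898, and the lowest r among the 12 was -0.85. The r of Cck with their median was 0.98. How many of all genes reached an r of 0.9 was not counted, so the 8 of 12 have no background at their own threshold. At the higher threshold of 0.95, 33 of 5806 other genes detected on all arrays passed with Cck. The part of these spots in the values of Cck was not tested.

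Sct encodes secretin, the S-cell hormone that stimulates bicarbonate secretion of the pancreas. It was the steadiest hormone, with 13.09, 13.13 and 13.70 in B7, B8 and B10, 13.01, 13.13 and 12.87 in K1, K3 and K4, and 12.87, 13.36 and 13.45 in G4, G8 and G11. The mice differed by at most 1.79-fold, and B10 was the highest. Feed K minus feed B was -0.30 (-0.86 to 0.26), and feed G minus feed B was -0.08 (-0.64 to 0.48), the narrowest intervals of any member.

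Gcg encodes proglucagon, which L cells process into the incretin glucagon-like peptide 1 and into peptides that act on mucosal growth. Its log2 signal was 11.30, 10.22 and 11.45 in B7, B8 and B10, 10.46, 11.00 and 10.32 in K1, K3 and K4, and 10.38, 11.58 and 10.91 in G4, G8 and G11. Each feed held high and low mice, and the feeds overlapped. Feed K minus feed B was -0.39 (-1.35 to 0.56), and feed G minus feed B was -0.03 (-0.99 to 0.92).

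Pyy encodes peptide YY, the second product of many L cells, which slows transit and lowers appetite. It measured 11.90, 10.76 and 11.91 in B7, B8 and B10, 10.58, 11.21 and 9.96 in K1, K3 and K4, and 10.57, 11.48 and 11.34 in G4, G8 and G11. B7 and B10 were the highest mice and K4 the lowest, with a range of 3.86-fold, and K3 lay above B8. Feed K minus feed B was -0.94 (SE 0.44, 95% interval -1.95 to 0.07), the member closest to the threshold in any pair of feeds, with an unadjusted p of 0.0653 and an adjusted p of 0.788 in limma. It was -0.51 with median scaling and -0.63 without K4, and -1.32 (-2.29 to -0.34) without B8, where the unadjusted p was 0.0149 and the adjusted p 0.560 in limma. Feed G minus feed B was -0.39 (-1.40 to 0.62), and feed G minus feed K was 0.55 (-0.47 to 1.56).

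Nts encodes neurotensin, a peptide of the N cells that affects fat absorption and motility. Its values were 11.90, 10.92 and 12.61 in B7, B8 and B10, 11.40, 12.15 and 9.86 in K1, K3 and K4, and 11.59, 11.94 and 11.02 in G4, G8 and G11. The range was 6.74-fold, the widest of the 8 hormone and granule genes detected on all arrays, and K4 stood 1.06 below the next mouse. The difference of feed K minus feed B was -0.67 (-2.11 to 0.77), and it was -0.03 without K4, -0.27 without B10, -1.12 without B8, -1.18 without K3 and -0.23 with median scaling.

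Sst encodes somatostatin, the D-cell peptide that inhibits the release of most other gut hormones. Its values were 13.46, 13.09 and 13.59 in B7, B8 and B10, 13.39, 13.48 and 12.52 in K1, K3 and K4, and 13.63, 13.21 and 12.32 in G4, G8 and G11. As for Gip, K4 and G11 were the low mice, and the other 7 lay within 0.54 of each other. Feed K minus feed B was -0.25 (-1.14 to 0.64), and feed G minus feed B was -0.33 (-1.22 to 0.57).

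Ghrl encodes ghrelin, the appetite-stimulating hormone made mainly in the stomach. It reached a signal-to-noise ratio of 3 only in G4 (3.54) and G8 (4.13), with log2 signals of 7.29 and 7.92. The other 7 mice read 5.63, 5.85 and 5.62 in feed B, 7.23, 6.53 and 6.19 in feed K and 6.32 in G11, all under the detection threshold. The values of feed B lay below those of the other feeds, but none of the 3 was detected, and Ghrl did not enter the fit, being detected on fewer than 3 arrays. In the 3 mice of feed B, and in K3, K4 and G11, the deposited Ghrl signal was equal to the standard deviation of its spot. The same held for each of the 119010 spots of the series whose ratio was under 1. These values reflect the noise of the spot and not a level of Ghrl. A difference of feed G from feed B would rest on them, and none is given.

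Chga encodes chromogranin A, a granule protein shared by most enteroendocrine cells and used as their general marker. It measured 11.95, 11.10 and 12.99 in B7, B8 and B10, 12.28, 12.35 and 11.80 in K1, K3 and K4, and 11.61, 12.02 and 10.87 in G4, G8 and G11. B10 was the highest and G11 the lowest mouse, with a range of 4.34-fold. Feed K minus feed B was 0.13 (-0.98 to 1.25), feed G minus feed B was -0.51 (-1.63 to 0.60), and feed G minus feed K was -0.65 (-1.76 to 0.47).

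Neurod1 encodes a helix-loop-helix transcription factor of differentiating endocrine cells. It was close to the detection threshold, with signal-to-noise ratios from -0.44 to 7.19, and was detected in B8 (6.88), K3 (7.47), G4 (6.81), G8 (7.23) and G11 (7.04). The 3 mice of feed G were all detected, compared with 1 of 3 mice on each of the other feeds, and the share of detected probes was also higher on the arrays of feed G than on those of feed B. The part of this in the values was not tested. B7, B10, K1 and K4 were under the detection threshold. In K4 the deposited Neurod1 signal was equal to the standard deviation of its spot. Neurod1 entered the fit only with the arrays of feed G, which had the highest mean, so no difference of feed G is given.

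Relative to feed B, 8 of the 9 members tested were lower in feed K and Chga was higher, with a median difference of -0.25, whereas the median over all 9498 genes was 0.05 and 4089 of them lay below. This count rested on K4, without which 4 of the 9 were lower in feed K and the median difference was 0.06. Neurod1, which was not detected in K4, was among those that turned. The 5 enterocyte genes tested were all higher in feed K than in feed B, as they also were in feed G. The 4 tuft cell genes, the 5 genes of the lower gut and the 2 pancreatic genes tested were all lower in feed K. Of the 6 smooth muscle genes 5 were higher in feed K and 1 was lower, and of the 5 Paneth cell genes 1 was higher and 4 were lower. The part of these genes in the member differences was not tested. With median scaling the median of all genes moved to 0.41, and 3 of the 9 members lay below feed B, although 8 of the 9 still lay below the median of all genes. In feed G, 6 of the 9 lay below feed B, with a median difference of -0.08 compared with 0.06 over all genes, with 3 of the 9 lower when B10 was left out and 0 of the 9 with median scaling. For feed G minus feed K, 7 of the 9 were higher, with a median of 0.36 compared with -0.01 over all genes, and 5 of the 9 were higher without K4, with a median of 0.16. Neurod1, which entered the fit only with the arrays of feed G, is counted among those higher in feed G than in feeds B and K. The comparisons share mice in pairs, and the members were related to each other over the mice, so these counts describe the list and carry no test.

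**Figure D2:**
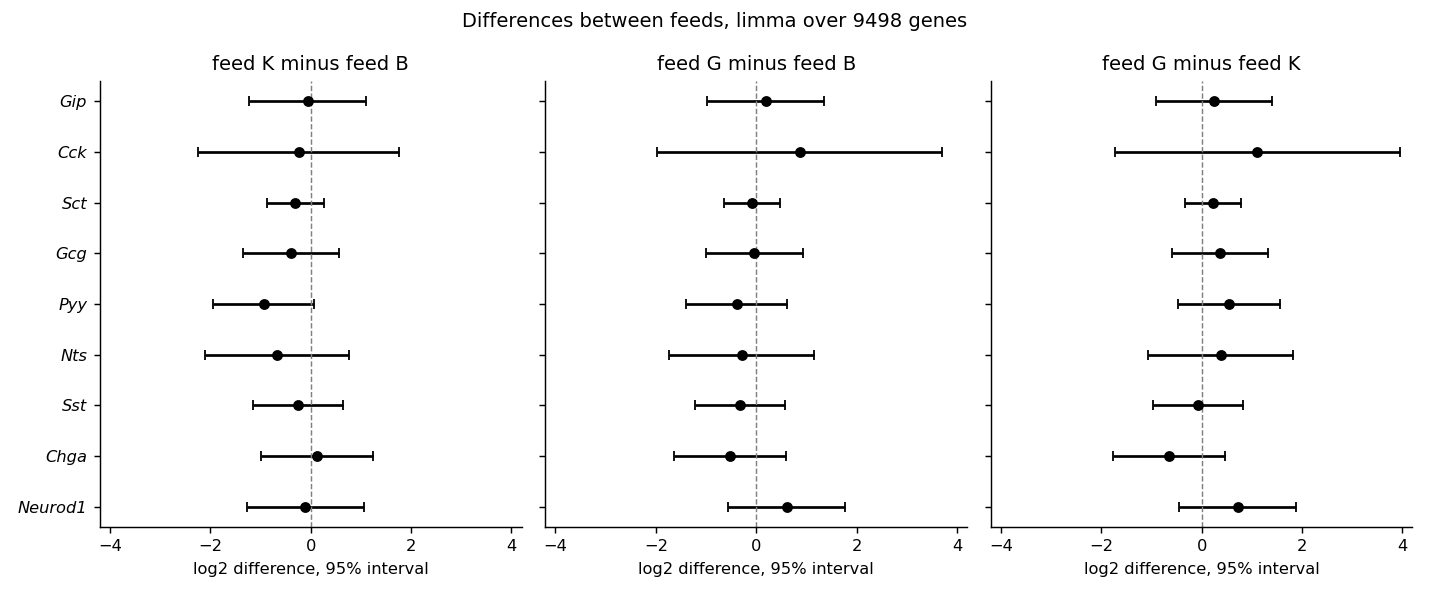
Log2 difference (horizontal axes) of each of the 9 genes tested (vertical axis) for the 3 pairs of feeds; points are the limma estimates and bars their 95% intervals. Each of the 27 intervals includes 0, and those of Cck are the widest. Neurod1 entered the fit only with the arrays of feed G.

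The hormones varied between mice more than most genes. The median SD of log2 signal over the mice was 0.63 for the 8 members detected on all arrays, compared with 0.29 for the 5807 genes detected on all arrays, and it was 0.63 compared with 0.28 within feeds. Of the 8, 7 lay above the median of all genes. Cck had an SD of 1.09, Nts of 0.81, Pyy of 0.66, Chga of 0.65, Gip of 0.61, Gcg of 0.52 and Sst of 0.47, and Sct of 0.28 lay below. The typical gene had a range of 1.85-fold between its highest and its lowest mouse, which was exceeded by all of the 8 but Sct.

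Several hormones were high and low in the same mice, but no pair passed the threshold after adjustment. Of the 28 pairs of the 8 members, 10 had a Pearson r of at least 0.7, whereas 4.1% of all 16776528 pairs of genes detected on all arrays did. An r above 0 was found in 25 of the 28 pairs, compared with 52% of all pairs. With feed means subtracted, 11 of the 28 pairs had an r of at least 0.7, compared with 7.25% of all pairs. By the exact permutation test over mice, two-sided, 9 of the 28 passed an unadjusted p of 0.05 and 0 passed after Benjamini-Hochberg adjustment over the 28 pairs. After adjustment 13 pairs passed with median scaling and 11 with the values of the series table, settings under which 34.2% and 18.3% of all gene pairs had an r of at least 0.7. By Spearman's rho 0 passed after adjustment as well. Without Cck, whose values went with the coded spots, 7 of 21 pairs had an r of at least 0.7, 7 passed unadjusted, and the smallest adjusted p was 0.0572 by the exact permutation test. The 8 genes share the 9 mice, so the pairs are not independent of each other.

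The pair with the smallest p, and with the highest r among those measured in all 9 mice, was that of the L-cell genes Gcg and Pyy. Their r was 0.88 over the 9 mice, with an exact permutation p of 0.00272, adjusted 0.0762, and a rho of 0.83 with an exact permutation p of 0.00827, adjusted 0.116. Without B8 and G8, the mice farthest from the median of Gcg, r was 0.97. With feed means subtracted r was 0.92, with an exact permutation p within feeds of 0.00463, the smallest that 216 arrangements gave, and an adjusted p of 0.0648. Ranked by r among the 5792 genes compared, Pyy stood at place 8 for Gcg and Gcg at place 6 for Pyy. Both were high in B7, B10 and G8 and low in B8, K1, K4 and G4, and feed K held no mouse of the high kind, K3 lying between with 11.00 and 11.21.

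**Figure D3:**
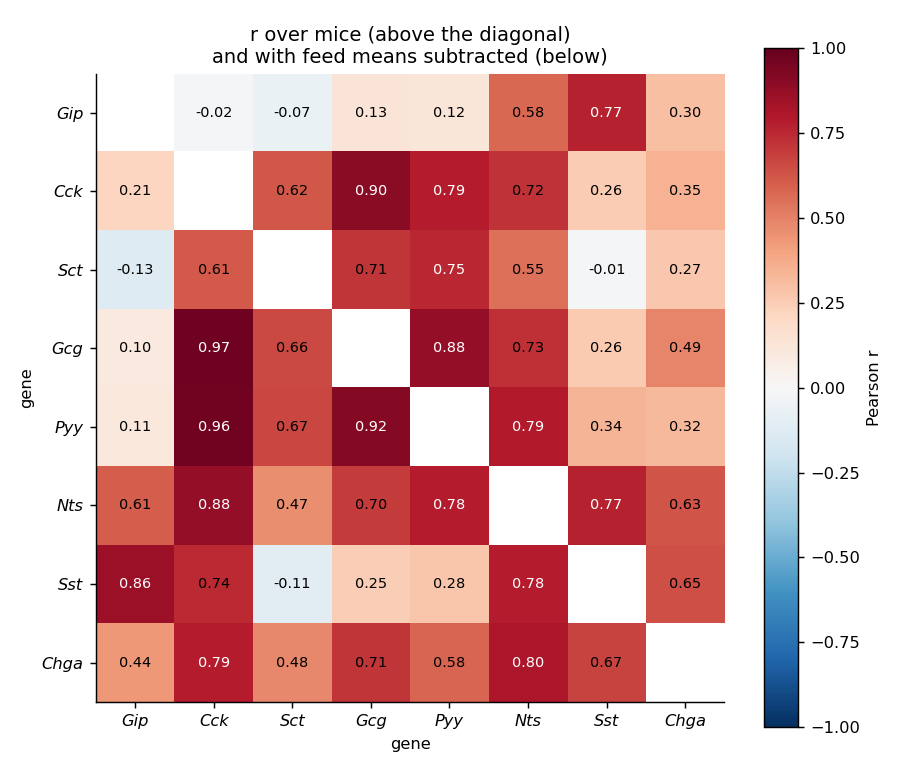
Pearson r of log2 signal for the 28 pairs of the 8 genes detected on all arrays, over the mice above the diagonal and with feed means subtracted below it; the colour runs from -1 (blue) to 1 (red), and pairs with Cck use 7 mice. Gcg, Pyy, Nts and Cck form a block of high values, and Gip is related mainly to Sst and Nts.

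Nts followed this pair. With Pyy its r was 0.79 (exact permutation p of 0.00944, adjusted 0.0865) and its rho 0.70 (exact permutation p of 0.0433), but r was 0.44 without B10 and K4, so that this relation rested on these 2 mice. With Gcg its r was 0.73 (exact permutation p of 0.0216, adjusted 0.0865), its rho 0.83 (exact permutation p of 0.00827), and r was 0.73 without B8 and G8. Sct was related to Pyy with an r of 0.75 (exact permutation p of 0.0182, adjusted 0.0865) and a rho of 0.80 (exact permutation p of 0.0138), and to Gcg with an r of 0.71 (exact permutation p of 0.0317, adjusted 0.111) and a rho of 0.57 (exact permutation p of 0.121). These pairs kept an r of 0.70 and 0.75 without B10 and G11. Without B7 the pair of Sct and Pyy alone passed the threshold, with an r of 0.93 over 8 mice and an adjusted p of 0.0236 by the exact permutation test.

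Cck, measured in 7 mice, had an r of 0.90 with Gcg (exact permutation p of 0.0159, adjusted 0.0865) and a rho of 0.82 (exact permutation p of 0.0341). With Pyy its r was 0.79 (exact permutation p of 0.0438, adjusted 0.136) and its rho 0.64 (exact permutation p of 0.139). Without B8 and K4 these r were 0.74 and 0.69.

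Gip, the upper-gut incretin, stood apart from Gcg and Pyy, with an r of 0.13 and 0.12. Its r with Sst was 0.77 (exact permutation p of 0.0200, adjusted 0.0865) and its rho 0.48 (exact permutation p of 0.194), but r was -0.18 without K4 and G11, so the relation rested on these 2 mice. Sst had an r of 0.77 with Nts (exact permutation p of 0.0138, adjusted 0.0865) and a rho of 0.72 (exact permutation p of 0.0369), and r was 0.62 without K4 and G11. Chga, the general marker, had an r of 0.65 with Sst, 0.63 with Nts and 0.32 with Pyy. None of these r passed the exact permutation test at an unadjusted 0.05. With Nts its rho was 0.77 (exact permutation p of 0.0214, adjusted 0.147), and r was 0.82 without B10 and K4. With feed means subtracted its r was 0.80 with Nts, with an exact permutation p within feeds of 0.00463, adjusted 0.0648. With Sst this r was 0.67 (exact permutation p within feeds of 0.0278, adjusted 0.130), and with Pyy 0.58 (0.190).

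**Figure D4:**
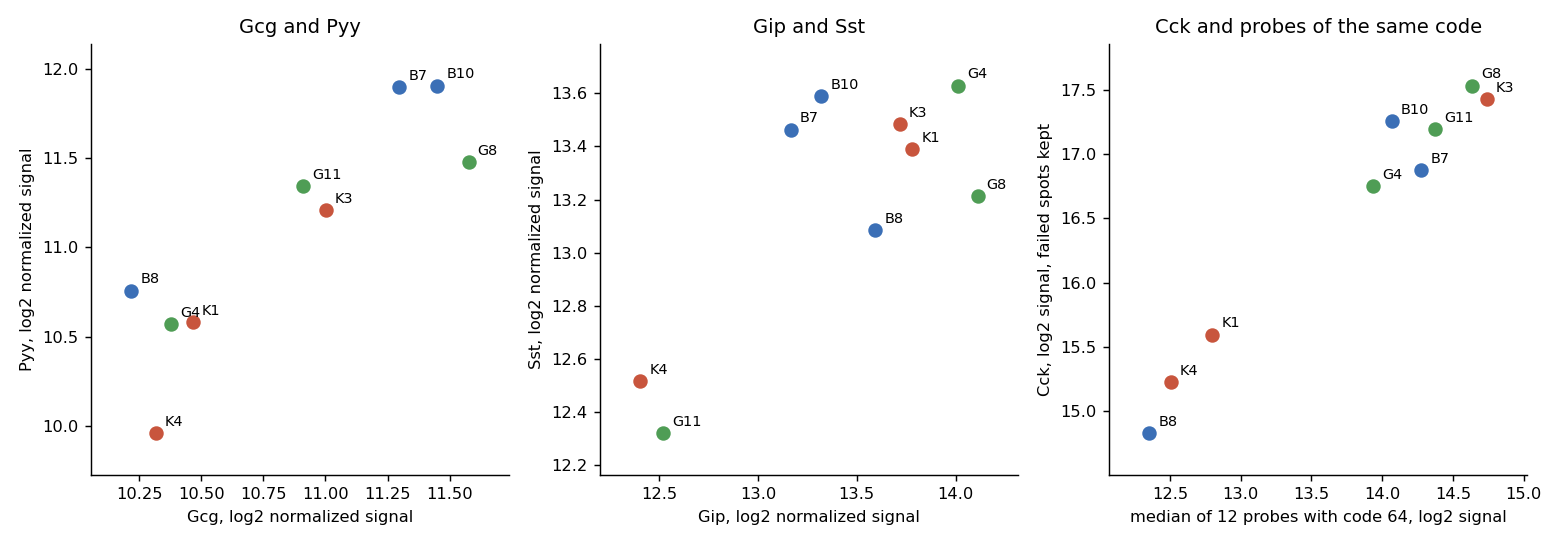
Log2 signal of Pyy against Gcg, of Sst against Gip, and of Cck (failed spots kept) against the median of the 12 other probes that carried code 64 on at least 4 arrays; each point is 1 mouse, labelled by feed (B blue, K red, G green) and number. Gcg and Pyy spread along a line through all feeds (r 0.88), Gip and Sst hold together through K4 and G11 only (r -0.18 without them), and Cck follows the other coded probes (r 0.98).

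The level of the coded probes moved with some of the hormones. Over the 9 mice with failed spots kept, their median had an r of 0.80 with Gcg, 0.74 with Pyy, 0.71 with Nts and 0.48 with Sct, and of 0.27, 0.24 and 0.22 with Sst, Chga and Gip. After regression of both members on this median, chosen after seeing the data, 3 of the 28 pairs kept an r of at least 0.7, compared with 10 before. These were Gcg with Pyy (0.72), Gip with Sst (0.76) and Sst with Nts (0.85), whereas Cck with Gcg went from 0.83 to 0.40 and Gcg with Nts from 0.73 to 0.39. Of the 28 pairs, 23 had an r above 0 after the regression.

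Other genes often followed a hormone more closely than the other hormones did. The 3 genes with the highest r were Cd81, Rnaset2 and Cbx2 for Gip (0.94, 0.92 and 0.91) and Rfx1, Myo1g and Adar for Cck (all at 1.00 over 7 mice, to 2 decimals). They were Blmh, Cnot7 and S100a10 for Sct (0.96, 0.89 and 0.88), 1810009M01Rik, Igj and 1110064N10Rik for Gcg (0.91, 0.90 and 0.89) and Actr10, Snrpa and Rpl27 for Pyy (0.92, 0.92 and 0.90). For Nts they were Col3a1, a collagen of connective tissue, Rarres2 and Efemp1 (0.94, 0.91 and 0.89). For Sst they were 2810428C21Rik, Srp54 and Akr1b7 (0.93, 0.92 and 0.90), and for Chga Phgdh, Cdk5rap1 and Emp3 (0.94, 0.93 and 0.91). None of these 24 genes is a hormone or granule gene of the lists used here. Each r is among the highest over 5792 genes, or 5798 for Cck, in 9 mice or fewer and is given as a description.

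The position of the segment along the gut was looked at through genes with a known gradient. Relations with the hormones were to be tested for Gata4, Cybrd1, Fabp6 and Slc10a2, of which only Gata4, a transcription factor of the upper small intestine, was detected on all arrays. Cybrd1 had no probe. Gata4 measured 8.87, 9.38 and 9.96 in B7, B8 and B10, 10.46, 10.43 and 10.18 in K1, K3 and K4, and 9.33, 8.57 and 9.32 in G4, G8 and G11. All 3 mice of feed K lay above the other 6. Slc40a1, the iron exporter of the upper gut, showed the opposite order, at 9.50, 9.39 and 9.43 in feed K and between 9.62 and 10.43 in the other 6 mice. Gata4 had an unadjusted p of 0.0179 and Slc40a1 of 0.0247 in limma between feeds K and B, with adjusted p-values of 0.774 and 0.779. The r of Gata4 with the 8 members lay between -0.43 for Pyy and 0.41 for Chga, and 0 of the 8 pairs passed an unadjusted p of 0.05 by the exact permutation test. Fabp6, the bile acid binding protein of the ileum, ranged from 4.67 in B8 to 17.84 in B10 and 19.51 in G11, and Slc10a2, the ileal bile acid transporter, had its highest values, 12.05 and 12.66, in the same 2 mice. So did Ostb, a subunit of the bile acid exporter, at 16.58 and 16.06, compared with 14.77 to 15.62 in the other 7. The separation was not shared by all: Fabp6 also reached 15.81 in B7. D630035O19Rik, the older name of Slc51a, was at 14.46 in B10 and 14.50 in G11, but also at 14.37 in B7 and 14.35 in B8. Mep1a was highest in G11 (11.67), but B10 (10.57) lay below K3 (11.49). Pyy measured 11.91 and 11.34 in B10 and G11, Gcg 11.45 and 10.91, and Nts 12.61 and 11.02. Gip was at 13.32 and 12.52 in B10 and G11, Sst at 13.59 and 12.32, Sct at 13.70 and 13.45, and Cck at 17.26 and 17.19. Chga was highest of all mice in B10 (12.99) and lowest in G11 (10.87). Whether the segments came from different positions, and what part this had in the hormone values, was not tested.

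The machinery of the enteroendocrine cells was followed in 87 genes of 5 lists, of which 74 had a probe, 32 were tested and 13 were detected on all arrays. Of the 32 tested, 0 passed the adjusted threshold in any comparison, as for all genes. Of the factors of endocrine cell fate, 6 of 16 were tested, and Isl1, which acts in the specification of several of these cells, lay between 9.98 and 10.65 in all mice.

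Of the granule and processing genes, 12 of 18 were tested. Chgb, chromogranin B, ranged from 11.54 to 13.01, with its highest value in B10 as for Chga. Scg2, secretogranin II, ranged from 9.46 to 10.18, and Cpe, the carboxypeptidase that trims prohormones, from 11.11 to 11.93. Pcsk1n, an inhibitor of prohormone convertase 1, measured 12.20, 12.65 and 12.63 in B8, K1 and K4 and between 13.90 and 14.82 in the other 6, and its r with the coded probes was 0.98. Scg3, secretogranin III, named here after its values were seen, was the only 1 of the 12 with an unadjusted p under 0.05, between feeds K and B and between G and B, compared with 6.29% and 5.76% of all genes. It read 6.31, 5.99 and 6.96 in B7, B8 and B10, 8.14, 7.60 and 8.65 in K1, K3 and K4, and 8.61, 7.70 and 7.77 in G4, G8 and G11. No array of feed B detected it, compared with 2 each of feeds K and G, so that it entered the fit through the feeds where it was high, and no difference is given.

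Among the nutrient sensors and transporters, 8 of 19 were tested. Of the 8, 2 had an unadjusted p under 0.05 between feeds K and B and between G and B, compared with 6.29% and 5.76% of all genes, and 1 of these, Gpr119, entered the fit through feeds K and G alone. Slc5a1, the sodium-glucose cotransporter through which glucose triggers the release of Gip and Gcg products, measured 15.03, 15.54 and 15.59 in B7, B8 and B10, 16.60, 16.49 and 16.49 in K1, K3 and K4, and 16.68, 16.62 and 15.72 in G4, G8 and G11. Every mouse of feeds K and G lay above the 3 of feed B. Feed K minus feed B was 1.14 (SE 0.29), with an adjusted p of 0.742, and feed G minus feed B was 0.95 (SE 0.29), with an adjusted p of 0.727, both in limma. Gpr119, a lipid receptor of L and K cells, named after its values were seen, read 6.13, 5.96 and 6.50 in feed B, 8.63, 7.14 and 7.67 in feed K, and 7.56, 7.83 and 7.77 in feed G. None of the arrays of feed B detected it, compared with all 3 of feed K and all 3 of feed G, and no difference is given. Slc15a1, the peptide transporter, ranged from 10.36 to 11.40 with overlapping feeds.

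Of other messengers of these cells, 5 of 14 genes were tested. Ddc, the decarboxylase that completes serotonin synthesis and is also an enterocyte enzyme, measured 13.44, 14.01 and 13.24 in B7, B8 and B10, 13.58, 13.28 and 13.41 in K1, K3 and K4, and 12.74, 12.70 and 12.77 in G4, G8 and G11. The 3 mice of feed G lay below the other 6, with a difference of -0.83 (SE 0.23) from feed B and an adjusted p of 0.618, and of -0.69 (SE 0.23) from feed K and an adjusted p of 0.964, both in limma. Tac1, the precursor of substance P, was at 8.87, 8.95 and 9.21 in feed B and at 8.23, 8.29 and 7.28 in feed K, a difference of -1.07 (SE 0.33) with an adjusted p of 0.774 in limma. Gal, galanin, ranged from 9.57 to 10.69. Of the 20 hormone receptors 1 was tested, Sort1, a sorting receptor that binds neurotensin, at 10.65 to 11.52 in all mice, and 9 were detected on 0 arrays, among them those of cholecystokinin and glucagon-like peptide 1.

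Several of the hormones are also made outside the epithelium, in enteric neurons or in the pancreas. The pancreatic enzyme genes Pnlip, Prss2 and Ela2 and the insulin gene Ins2 were detected on 0 arrays, whereas Ela1 and Ins1 were detected on all 9. The summed signal of these last 2 was 1332 to 2118 in feed B, 968 to 1651 in feed K and 1270 to 1818 in feed G. Of 12 enteric neuron genes 7 were tested, and 1 passed unadjusted between feeds K and B, compared with 6.29% of all genes. This was Stmn2, at 10.19, 10.14 and 10.22 in feed B, 9.58, 9.45 and 9.32 in feed K and 10.22, 10.01 and 9.41 in feed G, with an adjusted p of 0.774 in limma for feed K minus feed B. The neuronal Tubb3 ranged from 12.33 to 12.96. Of the 3 neuronal genes detected on all arrays, Tubb3 and Vip were brighter than Stmn2 and weigh more in their sum. The summed signal of the 3 was 11103 to 12397 in feed B, 8964 to 11099 in feed K and 9679 to 12408 in feed G. Feed K thus lay just below feed B in this sum, but of the 7 genes tested 3 were higher in feed K and 4 lower, the higher being Elavl4 (0.94), Uchl1 (0.42) and Prph1 (0.26), none of which passed the test. The part of neurons in the values of Nts, Sst and Chga was not tested.

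The other cells of the wall gave the summed signals below, over the marker genes detected on all arrays. The 5 enterocyte genes, Vil and Fabp2 among them, summed to 2131425 to 3188396 in feed B, 2859865 to 3406044 in feed K and 2638795 to 3850051 in feed G, and the 3 goblet cell genes, with Tff3, to 518305 to 736853, 623311 to 691999 and 583771 to 710212. The 5 smooth muscle genes, with Myh11, summed to 89247 to 104534, 82009 to 111530 and 65537 to 105669 in the same order of feeds. The 5 Paneth cell genes, with Mmp7, summed to 359038 to 560822, 183249 to 542416 and 81933 to 620419, the lowest being G11. In K1, K3 and K4 the Paneth sum was 542416, 183249 and 294420. The 3 stem cell and cycling genes summed to 2770 to 5725, 3992 to 5659 and 3968 to 5408, and the tuft cell gene Ltc4s to 479 to 875, 329 to 644 and 349 to 604. The feeds overlapped in each of these sums, and their part in the hormone values was not tested.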

How the data were processed

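The jejunal RNA of 9 mice was hybridised to 1 array per mouse. The authors deposited for each array the intensity (signal) of every spot with its standard deviation, a signal-to-noise score and a quality flag, and a table of the whole series with the assay-normalized signal intensity in linear units. The submitters' processing notes name RMA. From the deposited signal intensity, failed spots (flag over 5000) were removed, the arrays were brought to a common distribution by quantile normalization (arithmetic mean), and log2 values of the probes of a gene were averaged. The 391 probes with several symbols named no gene. Genes detected on at least 3 arrays were fitted over all 9 arrays with limma 3.58.1 in R 4.3.3, with Benjamini-Hochberg adjustment over 9498 genes. Relations over mice used exact permutation tests in Python 3.11.15 with numpy 2.4.6, pandas 2.3.3 and scipy 1.17.1. The scripts were tested on simulated data. Symbols were matched directly or, for 24 of 169 list entries, through older names. The members, lists and tests were chosen with earlier results of these data known. The rule for naming genes took the 10 members and the 3 genes most like each member. It also took the first 4 of each pathway list and the first 2 of each cell marker list detected on all arrays. It was not followed throughout. Of the marker genes under the rule, Actg2, Agr2, Lzp-s, Gpr49 and Smoc2 were not named. Others were named outside it, among them Scg3, Gpr119, Mep1a, Elavl4, Uchl1 and Prph1. Alternatives were scaling to the median, the series table as deposited, a single brightest probe per gene, keeping failed spots, a floor at percentile 5, other filters and tests, and leaving out each mouse. The number of arrays limits the precision.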

Additional observations from a re-analysis of the deposited data

How the results depend on the processing

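No member passed the threshold in limma under another scaling, probe, spot or floor setting or with 1 mouse left out, with a smallest adjusted p of 0.388. The counts of genes called over all genes were 0 in limma, with 597 (K and B), 547 (G and B), 424 (G and K) and 509 genes (over the 3 feeds) under 0.05 without adjustment. They ranged from 0 to 10 between feeds K and B, 0 to 3 between G and B and 0 to 3 over the 3 feeds when 1 mouse was left out, the highest each time without B10. Over genes detected on all 9 arrays 1 gene was called for feed G minus feed B and 1 over the 3 feeds, and an unmoderated test called 1 gene between G and B, 1 between G and K and 1 over the 3 feeds. The exact permutation test over the 3 feeds called 0 genes, with 478 at an unadjusted p of 0.05.

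Of 135 values of the 27 member differences under other settings, 117 kept their direction. With median scaling the direction turned for Cck (0.073), Gip (0.35), Sct (0.12), Gcg (0.045) and Sst (0.17) in feed K minus feed B, and for Sct (0.47), Gcg (0.54), Pyy (0.18), Sst (0.21), Nts (0.27) and Chga (0.043) in feed G minus feed B, and for Sst (0.038) in feed G minus feed K. With the series table it turned for Gip (0.10) in feed K minus feed B, and for Sct (0.21), Gcg (0.33), Sst (0.0010) and Nts (0.061) in feed G minus feed B, and for Sst (0.082) in feed G minus feed K. These settings shift the median of all genes from 0.05 to 0.41 and 0.22 between K and B, and from 0.06 to 0.53 and 0.30 between G and B.

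Leaving out 1 mouse turned 24 of 240 values, in 13 differences. For feed K minus feed B the range was -0.98 (without B8) to 0.22 (without B10) for Cck, -0.30 to 0.39 for Gip and -0.43 to 0.057 for Sst, both highest without K4, -0.32 (without B8) to 0.62 for Chga and -0.69 to 0.37 (without K4) for Neurod1. For feed G minus feed B it was -0.093 (without G8) to 0.70 for Gip, -0.19 to 0.12 (without B10) for Sct, -0.42 to 0.25 (without G4) for Gcg, -0.61 to 0.042 (without G11) for Sst and -0.74 to 0.11 (without B10) for Nts. For feed G minus feed K it was -0.20 (without K4) to 0.76 for Gip, -0.38 to 0.29 (without G11) for Sst and -0.26 (without K4) to 0.89 for Nts. The cause was not tested. The Neurod1 signal of K4 was under the detection threshold. The difference of feed K minus feed B ranged for Pyy from -1.32 (without B8) to -0.63 (without K4) and for Nts from -1.18 (without K3) to -0.03 (without K4).

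Member pairs past the adjusted threshold numbered 13 with median scaling and 11 with the series table, in place of 0, and between 0 and 1 with 1 mouse left out. Under these scalings 34.2% and 18.3% of all gene pairs had an r of at least 0.7, and 15 and 13 of the 28 member pairs did. No paired analysis was possible, because each array is 1 mouse on 1 feed and the sources name no matched mice. A block for array batch was not run, as the sources name no batch. With 3 mice per feed, and 1 mouse of feed G for Cck, the 95% intervals of the member differences reached from 0.56 to 2.84 to either side. The widest, of Cck in the comparisons with feed G, rested on that 1 mouse. Differences smaller than the reach of a gene's own interval could not be told from 0.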
